A study of Mus musculus with 23 samples.

Results

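The 77 genes described here encode the proteins of the mitochondrial ribosome under the names Mrpl, for the large subunit, and Mrps, for the small subunit. They are all 77 protein-coding genes of these names that are listed in both deposited tables, out of 22852 genes in both. Each had to average at least 10 raw counts in each table, and none was lost to this minimum. Nearest to it were Mrpl47 in males, with 145 counts on average, and Mrps6 in females, with 135. By their products, 50 members belong to the large subunit and 26 to the small. Mrps30 and Mrps18a are counted with the large subunit, where their proteins sit. Mrps36 stands alone, since its product is now known as a component of the 2-oxoglutarate dehydrogenase complex. Mrpl53, a further large subunit gene, is not analysed here.

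Liver RNA was sequenced from 23 mice of a background that the labels call B100, in 4 groups: control and LKO males (5 and 6 livers) and control and LKO females (6 livers each). LKO stands for the ablation of hepatic Cpt1a, the enzyme that admits long-chain fatty acids to mitochondrial oxidation. All mice, controls included, carried the B100 background, had eaten a diet labelled WD for 16 weeks and were in the fed state at necropsy. The allele behind B100, what drives the ablation and the age of the mice are not given in the sources used here. Each label names a separate mouse, with control male replicates 1, 2, 3, 4 and 6 analysed.

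Mitochondria keep a small genome of their own, and the mitochondrial ribosome translates its mRNAs, all of which encode subunits of the respiratory chain or of ATP synthase. Its rRNAs come from that same genome, whereas its proteins are encoded in the nucleus, made in the cytosol and imported. The small subunit reads the mRNA, the large subunit joins the amino acids, and an anchor at the exit tunnel holds the particle to the inner membrane, into which most of the new chains are inserted. In liver, an organ rich in mitochondria, this machinery serves fatty acid oxidation, ketone body and urea synthesis.

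Total counts ran from 14224665 to 19626662 per library. The targeted gene followed the labels. Cpt1a averaged 357 ± 50.3 CPM (counts scaled to a common library size, with edgeR's TMM factors; SD, n = 5) in control males and 63.0 ± 20.2 (n = 6) in LKO males, which is 17.7% of the control level. In females it averaged 387 ± 59.1 in controls and 75.9 ± 8.87 in LKO livers (n = 6 each), or 19.6%. The lowest control value, 301 CPM in males and 287 in females, lay above the highest LKO value, 95.8 and 87.6, with two-sided exact permutation p = 0.00433 and 0.00216. Of 10 hepatocyte markers listed, 9 were in both tables, and their summed level lay between 59565 and 113179 CPM in all 23 livers, against 366 to 1212 for 10 macrophage and Kupffer cell markers.

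The members differed widely in level, by the deposited FPKM (fragments scaled by gene length and library size). Mean FPKM over the 23 livers ran from 1.93 to 118 with a median of 12.7, as the plot of the 77 ordered levels shows. Mrpl12, a protein of the stalk that recruits translation factors, was highest with group means from 108 in control females to 134 in control males. Mrpl14 followed at 94.6 and Mrpl34 at 89.5. The group means of Mrpl14 ran from 82.4 to 102, below those of Mrpl12. Those of Mrpl34 (74.3 to 119) spanned the range of Mrpl14 and overlapped that of Mrpl12, so the order of these 3 was not the same in every group. At the other end stood Mrpl47 at 2.09, Mrps25 at 2.02 and Mrpl19 at 1.93, whose group means overlapped too. FPKM divides by an annotated length that ran from 607 bases for Mrpl34 to 8631 for Mrps35. By location the members lay on 17 chromosomes, most often on chromosome 11 (11 members) and 17 (8 members).

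**Figure D1:**
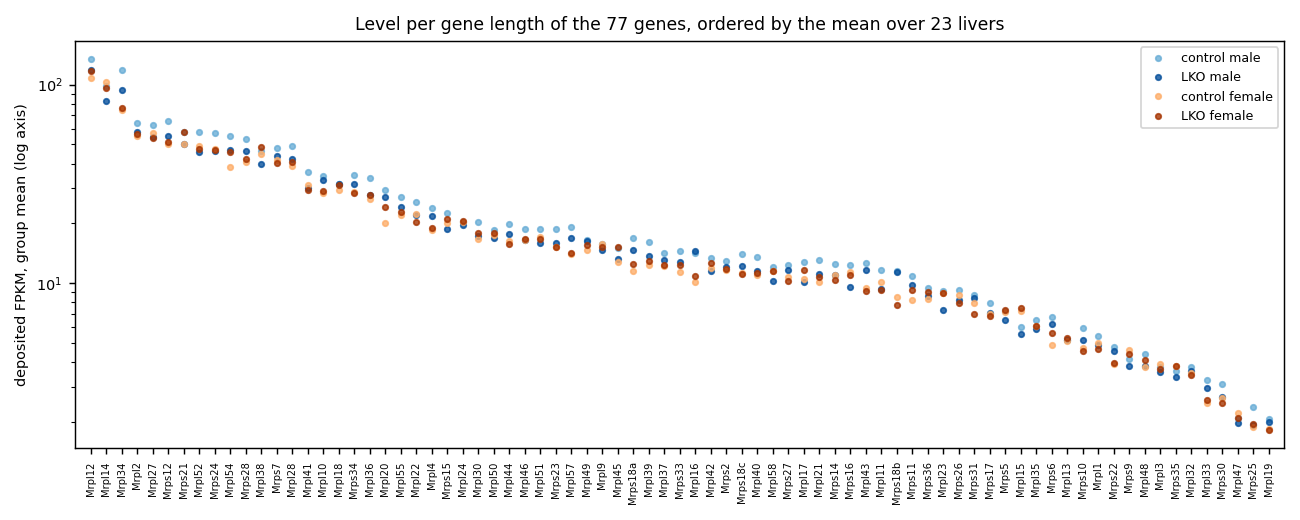
Deposited FPKM of the 77 genes as group means (log axis), ordered by the mean over all 23 livers, with 1 colour per group. Mrpl12, Mrpl14 and Mrpl34 are highest and Mrpl47, Mrps25 and Mrpl19 lowest, and for most genes the control males are the highest of the 4 groups.

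Counts of 4 members are less certain, because the tables also list processed copies named after Mrps36, Mrpl23, Mrpl27 and Mrpl48, with which reads may be shared. The libraries kept the strand by dUTP, but whether counting used it is not stated. Values of members that overlap another gene are uncertain for that reason.

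Members shared features that their names do not set. Of the 77, 18 (23.4%) start within 1000 bases of a protein-coding gene on the opposite strand that runs away from them, by the positions in the tables. The same held for 8.25% of all protein-coding genes in either table and for 9.53% of those tested in both sexes. Such a pair starts from 1 shared stretch of DNA. By RefSeq starts (build GRCm38.p6), the members Mrpl46 and Mrps11 on chromosome 7 also run away from each other from overlapping upstream stretches. They are not among the 18. Among the partners are Fau, which encodes a cytosolic ribosomal protein, 59 bases from Mrpl49, Sars2, the mitochondrial seryl-tRNA synthetase, 172 bases from Mrps12, and Psma2, a proteasome subunit, 75 bases from Mrpl32.

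Promoter letters were read for 68 members (74 windows) from RefSeq, build GRCm38.p6, in windows of 250 bases before to 50 after each start, on both strands. Letters of the NRF1 motif (GCGCANGCG) stood in 21.6% of the member windows, against 6.25% of all RefSeq promoters and 12.4% of those of protein-coding genes tested in both sexes. The ETS core that GABP also reads (CCGGAAG) stood in 33.8%, against 8.86% and 16.4%. The YY1 motif (AAGATGGCG) stood in 10.8%, against 1.40% and 2.79%. Promoters of cytosolic ribosomal proteins (79 windows) held the ETS core in 34.2%, YY1 in 7.59% and NRF1 in 11.4%, and their ETS share was close to that of the members. CCAAT stood in 39.2%, against 37.4% of all and 37.4% of the tested genes. The E-box CACGTG (9.46%) and TATAAA (6.76%) lay near the tested genes (9.65% and 7.68%), against 7.15% and 13.6% of all. No motif searched contains another. Median GC content was 58.5% in the member windows, 52.7% in all and 60.3% in the tested genes. NRF1 and GABP are known regulators of nuclear genes for mitochondria. A match is a run of letters, not a shown binding site.

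Upstream stretches of 5 members on which the comparisons below turn are shown 5′ to 3′ on the strand of the gene, with capitals marking the motif letters found on either strand. Mrps16 (chr14:20393635-20393884, minus strand) holds a reversed CCAAT in the window shown. A second RefSeq start of Mrps16, with the window chr14:20393491-20393740, adds a reversed ETS core. Mrpl17 (chr7:105811088-105811337, minus) holds an ETS core and a pair of NRF1 motifs. Mrpl34 (chr8:71464676-71464925, plus) holds an ETS core, Mrpl16 (chr19:11770165-11770414, plus) a TATAAA and Mrps21 (chr3:95871515-95871764, minus) a reversed NRF1 motif.
Mrps16: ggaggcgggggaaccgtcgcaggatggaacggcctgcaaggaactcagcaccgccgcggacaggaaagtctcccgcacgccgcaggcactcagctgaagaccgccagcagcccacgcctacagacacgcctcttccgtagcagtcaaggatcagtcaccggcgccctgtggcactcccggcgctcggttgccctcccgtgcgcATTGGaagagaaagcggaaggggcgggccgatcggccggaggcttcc
Mrpl17: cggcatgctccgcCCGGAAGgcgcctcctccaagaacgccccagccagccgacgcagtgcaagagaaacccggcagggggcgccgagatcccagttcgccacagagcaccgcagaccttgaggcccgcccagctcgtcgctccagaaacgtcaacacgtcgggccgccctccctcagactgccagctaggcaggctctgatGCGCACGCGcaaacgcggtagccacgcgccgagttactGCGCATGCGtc
Mrpl34: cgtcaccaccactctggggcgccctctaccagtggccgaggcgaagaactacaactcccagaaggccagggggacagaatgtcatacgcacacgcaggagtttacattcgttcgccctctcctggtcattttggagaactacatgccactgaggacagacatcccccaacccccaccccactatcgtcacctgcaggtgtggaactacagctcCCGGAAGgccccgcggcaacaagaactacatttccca
Mrpl16: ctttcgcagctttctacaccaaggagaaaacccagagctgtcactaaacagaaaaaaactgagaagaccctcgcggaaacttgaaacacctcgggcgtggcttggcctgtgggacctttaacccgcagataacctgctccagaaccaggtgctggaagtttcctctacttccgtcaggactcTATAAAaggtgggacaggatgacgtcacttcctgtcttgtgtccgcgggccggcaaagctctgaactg
Mrps21: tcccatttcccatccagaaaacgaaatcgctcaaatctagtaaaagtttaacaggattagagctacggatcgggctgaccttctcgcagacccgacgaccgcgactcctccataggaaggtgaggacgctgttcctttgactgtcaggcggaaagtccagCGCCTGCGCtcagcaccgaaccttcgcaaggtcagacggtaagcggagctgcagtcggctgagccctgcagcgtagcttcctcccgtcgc

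In males, nearly all members had lower values in LKO than in control livers, by little, and no single member passed the test. The log2 difference was below 0 for 75 of 77 members, with a median of -0.17 (-11.3%), while 47.9% of all genes tested were lower and their median was 0.01. By edgeR's quasi-likelihood test with Benjamini-Hochberg adjustment over 13805 genes, 0 members were called at an adjusted p under 0.05. Cpt1a was the only gene called (0.00724% of genes tested). At an unadjusted p under 0.05, 25 members were lower and 0 higher, against 7.22% of all genes that were lower at this level. With library size alone in place of TMM factors, 12 members were at an unadjusted p under 0.05. Both subunits showed it, with medians of -0.18 over the 50 large subunit members and -0.16 over the 26 small subunit members, all 26 of which were lower. Mrps36 lay at -0.12. Liver tissue was sequenced in bulk, so fewer cells of a type and less RNA per cell cannot be told apart. Each p-value sets the difference between groups against the variation within them, which holds both counting error and the spread between mice.

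Mrps16 (chromosome 14, bases 20439372 to 20443702 of mm39, minus strand), a small subunit protein whose human counterpart is a mitochondrial disease gene, gave the largest and most separated difference. Its values were 33.8, 34.3, 30.9, 39.3 and 39.6 CPM in control males 1, 2, 3, 4 and 6, and from 25.4 to 30.1 with a median of 27.5 in the 6 LKO males. The groups did not overlap, though the lowest control and the highest LKO value lay close together. Mrps16 was the only member without overlap, and 1.06% of genes tested were lower in LKO males without overlap. Its log2 difference was -0.37 (SE 0.081), with an edgeR adjusted p = 0.22. With DESeq2's Wald test, which called 0.811% of genes, it passed at an adjusted p = 0.0149. It was also the 1 member with an adjusted p under 0.05 in the authors' deposited table (-0.38, adjusted p = 0.0157), which holds 0.438% of genes at that level in males.

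Mrpl23, a large subunit protein at the mouth of the exit tunnel, read 43.8, 37.8, 43.0, 48.3 and 49.96 CPM in control males and from 33.4 to 40.2 (median 35.5) in LKO males. Only control male 2 fell among the LKO values. The log2 difference was -0.31 (SE 0.083, edgeR adjusted p = 0.25). Mrpl11, at the base of the factor-binding stalk, read 38.5, 33.8, 30.4, 42.5 and 43.6 CPM in control males and from 27.3 to 34.8 (median 29.9) in LKO males. Control males 2 and 3 lay within the LKO range. The difference was -0.32 (SE 0.10, edgeR adjusted p = 0.274).

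Mrpl52, a large subunit protein with no bacterial counterpart, read 59.0, 53.5, 56.2, 73.4 and 76.9 CPM in control males and from 49.2 to 55.8 (median 50.3) in LKO males. Here control males 4 and 6 stood well above the other 3, and only the highest LKO liver reached the lowest control. The difference was -0.33 (SE 0.098, edgeR adjusted p = 0.274). Mrps24, of the small subunit, read 85.4, 68.9, 73.8, 89.8 and 98.0 CPM in control males and from 64.3 to 73.5 (median 66.3) in LKO males, a difference of -0.29 (SE 0.093). Mrpl17 read 91.2, 84.4, 92.9, 94.4 and 120 CPM against 64.8 to 85.0 (median 79.1), and Mrpl34 read 69.1, 62.3, 61.2, 76.7 and 91.0 against 49.8 to 63.1 (median 59.0). In these too the control males 1, 2 and 3 were nearest to the LKO livers. Only 2 members pointed the other way, Mrpl16 (0.05, SE 0.098) and Mrpl18 (0.01, SE 0.11), both far from any threshold. Leaving out LKO male 3 put Mrpl16 at -0.02, and Mrpl18 was below 0 under several alternatives.

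**Figure D2:**
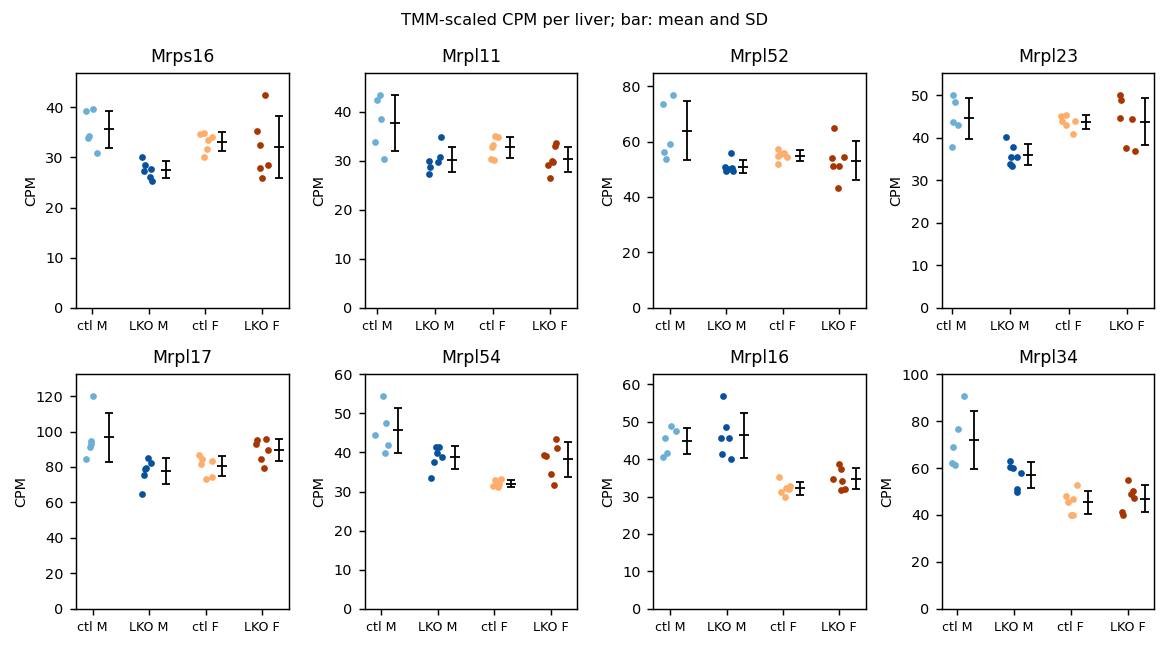
TMM-scaled CPM of 8 members in every liver of control (ctl) and LKO males (M) and females (F), from an axis starting at 0, with bars for the group mean and SD. Mrps16 alone shows no overlap between control and LKO males, and Mrpl54, Mrpl16 and Mrpl34 show control females below every control male.

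The members moved together from mouse to mouse, and the control males were spread as widely as the groups were apart. The mean deviation of a liver, over the 77 members in log2 CPM from the control mean of its sex, was -0.02, -0.13, -0.14, 0.08 and 0.20 in control males 1, 2, 3, 4 and 6. In the 6 LKO males it ran from -0.23 to -0.07, with a median of -0.17. Control males 2 and 3 therefore lay within the LKO range, and control male 6 alone had 75 of 77 members above the control mean. Without control male 6, the median over members was -0.12 and 11 members were lower at an unadjusted p under 0.05. Without control male 4 these values were -0.15 and 13, and without LKO male 6 they were -0.16 and 15. The median coefficient of variation of a member was 12.7% in control males, 8.21% in LKO males, 7.77% in control females and 11.4% in LKO females. For all genes tested it was 18.3, 16.7, 15.9 and 16.5%. Members were not matched to genes of their own count level, so these values do not show that members vary unusually little.

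**Figure D3:**
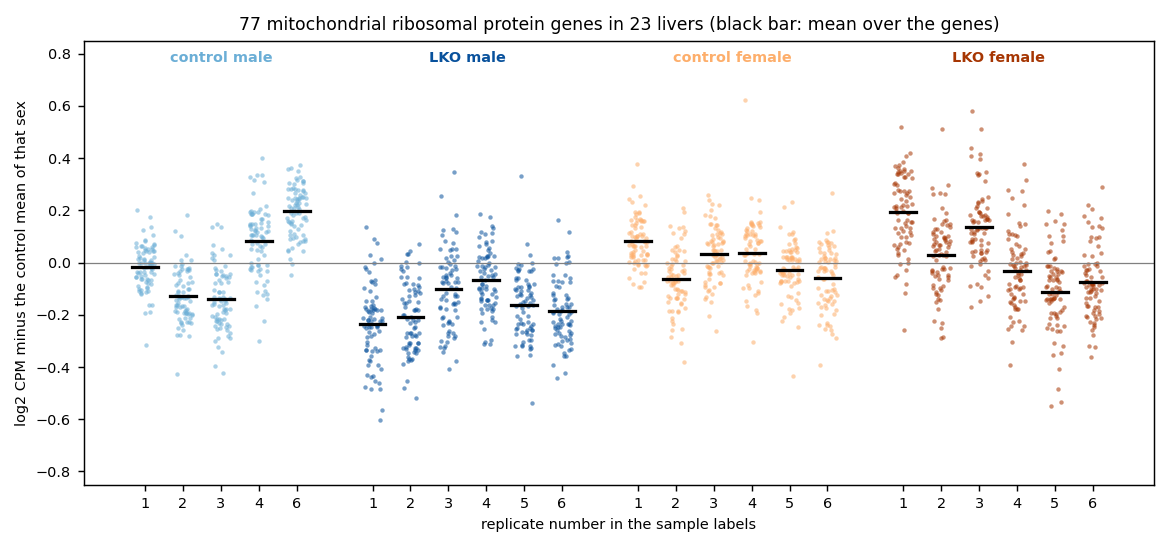
Each point is 1 of the 77 members in 1 liver, as log2 CPM minus the control mean of that sex, and the black bar is the mean over members. The 6 LKO males sit between -0.23 and -0.07, control males between -0.14 and 0.20, and LKO females between -0.11 and 0.19.

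Other features moved with the male difference, and their part in it was not tested. Gene length was one. Among protein-coding genes tested, the median log2 difference in males was -0.11 in the shortest quartile (70.3% of genes lower) and 0.07 in the longest (31.6% lower). Members, most of them short, had medians of -0.18 in the shortest quartile (43 members), -0.17 in the second (17), -0.13 in the third (10) and -0.13 in the longest (7). Quartiles are wide, and members were not matched to genes of their own length. The cytosolic ribosomal proteins were another. Of 86 tested, 85 were lower in LKO males, with a median of -0.28 and 0 called, and their mean deviation was -0.35 to -0.15 in LKO males and -0.23 to 0.20 in control males. Summed hepatocyte markers were 63420 to 94164 CPM in control males and 59565 to 85629 in LKO males. Of 9 tested, 3 were higher in LKO males and 0 called, with a median log2 difference of -0.15. Summed macrophage and Kupffer cell markers were 366 to 797 CPM in control males and 612 to 925 in LKO males. Of 10 tested, 7 were higher in LKO males and 0 called, with a median of 0.27. Control male 4 had the lowest total count and a TMM factor of 0.875. With library size alone, the members' median was -0.11 and that of all genes 0.06.

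**Figure D4:**
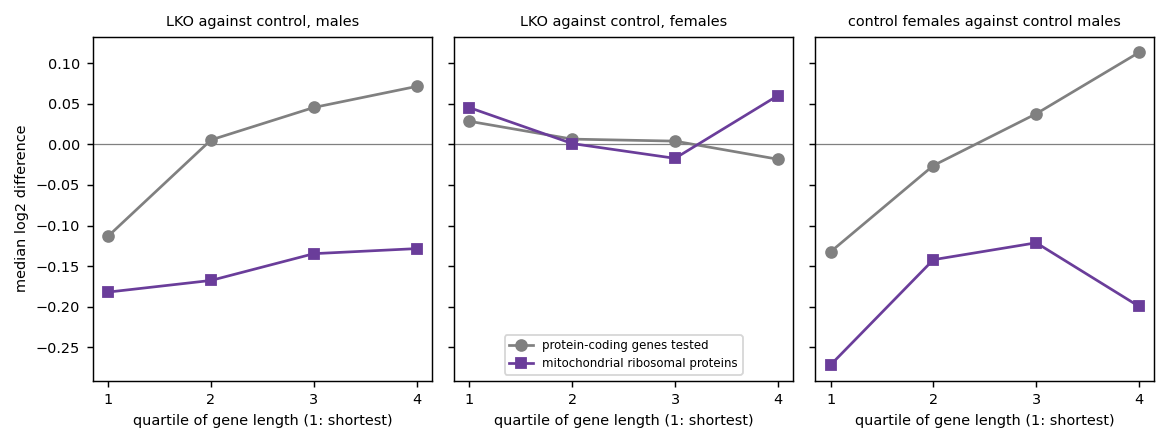
Median log2 difference by quartile of annotated gene length, for protein-coding genes tested (grey circles) and the members (purple squares), in 3 comparisons. In males and in the control comparison the grey line climbs from short to long genes, and the members lie below it in every quartile.

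In females the members did not shift in 1 direction, and none was called. Of 77, 48 were higher and 29 lower in LKO livers, against 51.1% of all genes higher, and the median log2 difference was 0.02 (all genes 0.01). By edgeR's quasi-likelihood test 194 of 13684 genes were called (1.42%), among them 0 members, and 5 members had an unadjusted p under 0.05 (8 with library size alone), against 15.6% of all genes. In females 2.23% of genes had an adjusted p under 0.05 by the authors' deposited table, among them 0 members. No member was free of overlap between LKO and control females, against 0.563% of genes that were lower without overlap and 1.02% that were higher.

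Mrpl54 (chromosome 10, bases 81100547 to 81102768 of mm39, minus strand), a large subunit protein with no bacterial counterpart, came nearest. Control females read 31.3 to 33.3 CPM (median 31.7), and LKO females 31.6 to 43.5 (median 39.3). The control values were tightly grouped and most LKO livers lay above them. The log2 difference was 0.25 (SE 0.08, edgeR adjusted p = 0.132). Mrpl20, which joins the large subunit early in assembly, read 29.2 to 39.1 CPM (median 34) in control and 37.7 to 44.6 (median 39.9) in LKO females, 0.27 on the log2 scale (SE 0.087, edgeR adjusted p = 0.137). Mrpl45, a membrane anchor at the exit tunnel, differed by 0.25 (SE 0.11) and Mrps21 by 0.21 (SE 0.092). Mrps31, of the small subunit, was the only one among the 5 with lower values, 24.7 to 28.2 CPM (median 26.0) in control and 21.2 to 26.4 (median 23) in LKO females, with a difference of -0.18 (SE 0.072). Among the other lower members with the lowest p were Mrpl11 (-0.11), Mrpl22 (-0.13), Mrps26 (-0.14) and Mrps18b (-0.12).

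LKO females were the more spread group. Their mean deviation was 0.19, 0.03, 0.14, -0.03, -0.11 and -0.07 in replicates 1 to 6, while control females ran from -0.06 to 0.08. LKO females 1 and 3 had 70 and 66 members above the control mean, and LKO females 5 and 6 had 63 and 60 below it. Without LKO female 1 the median over members was -0.01 and without LKO female 3 it was 0.00. The count of 5 fell to 3 without LKO female 1 or 3 or control female 2 or 5. Cell type markers moved as well. Of 9 hepatocyte markers 2 were higher in LKO females and 0 called, with a median of -0.26. Their sums were 66907 to 105426 CPM in LKO and 93078 to 113179 in control females. Of 10 endothelial cell markers 2 were higher and 0 called, with a median of -0.13. Summed B and plasma cell markers reached 519 CPM in 1 LKO female, against 22 to 31.2 in control females. Of 8 cholangiocyte markers 6 were tested, and all 6 were higher in LKO females, 1 of them called. Their sums were 65.7 to 103 CPM against 55.9 to 65.7, and these were mostly Spp1. It averaged 60.2 of a mean sum of 84.0 CPM in LKO females, and 38.0 of 59.7 in control females. Of 10 stellate cell and fibroblast markers 9 were higher and 0 called, with sums of 249.5 to 435 against 266 to 322. Their part was not tested.

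**Figure D5:**
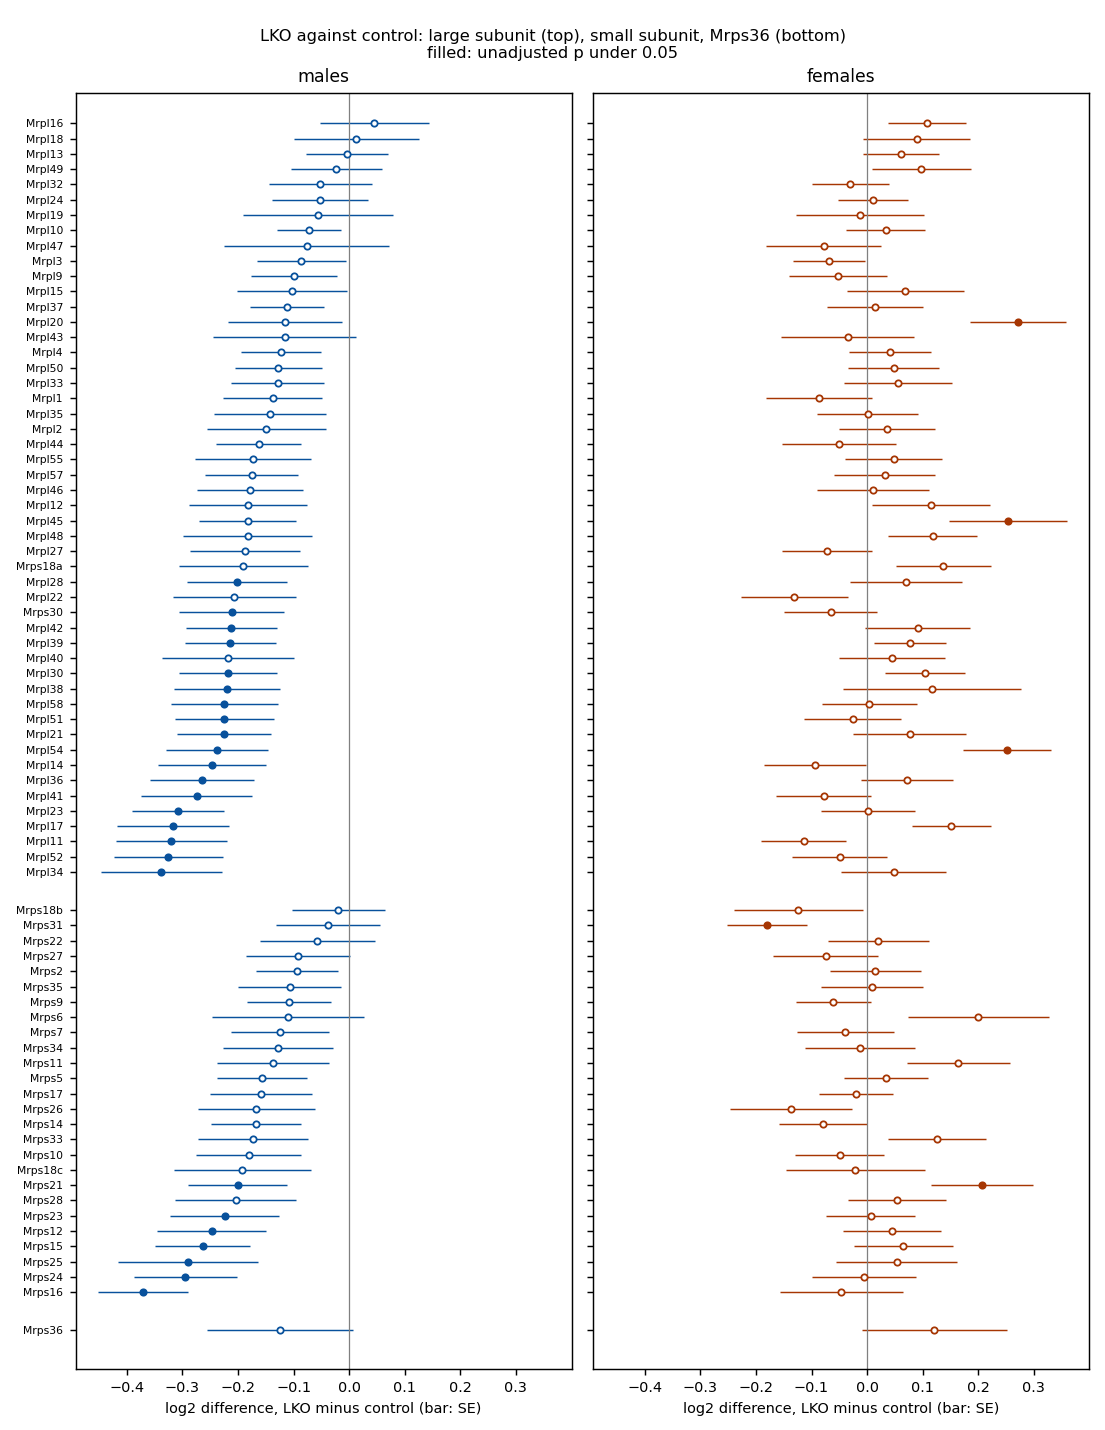
Log2 difference of LKO minus control for each of the 77 members in males (left) and females (right), with its standard error and members grouped by subunit. Filled points mark an unadjusted p under 0.05: 25 in males, all below 0, and 5 in females, of which 1 is below 0.

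The difference between the sexes was tested as an interaction, the LKO minus control difference in females less that in males. No gene of 14503 was called (0.0%) by edgeR's quasi-likelihood test, and so 0 members were. The value was above 0 for 74 of 77 members with a median of 0.19, against 51.0% of all genes and a median of 0.01. Members were not alone in this. Of 86 cytosolic ribosomal proteins 81 were above 0, with a median of 0.33 and 0 called, 61 of them at an unadjusted p under 0.05. At an unadjusted p under 0.05, 22 members were above 0 and 0 below, against 6.98% of all genes above 0. Without control male 6 this count was 10, without LKO female 1 it was 11, without LKO female 3 or control male 4 it was 13 and without LKO male 1 it was 14. The number of members below 0 was 3, and reached 10 without control male 6, 8 without control male 4, 7 without LKO female 1 or control female 6, 6 without LKO male 1 and 5 without LKO female 3 or with library size alone.

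Mrpl54 had the lowest interaction p. Its male values were 47.5, 39.9, 44.4, 41.9 and 54.6 CPM in controls and 33.5 to 41.5 (median 39.3) in LKO livers, a difference of -0.24 (SE 0.091), against 0.25 in females. In LKO livers the median was thus the same in both sexes, and control males and control females lay on either side of it. The interaction was 0.49 (SE 0.12, edgeR adjusted p = 0.143). Mrpl17 differed by -0.32 in males and 0.15 in females, where controls read 73.2 to 86.6 CPM (median 82.3) and LKO livers 79.7 to 95.7 (median 91.2), an interaction of 0.47 (SE 0.12, edgeR adjusted p = 0.158). Mrps21 differed by -0.20 and 0.21, an interaction of 0.41 (SE 0.13, edgeR adjusted p = 0.22). With DESeq2, which called 0.662% of genes, Mrpl54 (adjusted p = 0.0374) and Mrpl17 (0.0424) passed.

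Averaged over both sexes, LKO livers had lower values for 66 of 77 members, with a median of -0.07 (-4.79%). By edgeR's quasi-likelihood test 79 of 14503 genes were called (0.545%) and 0 members, and 10 members were lower at an unadjusted p under 0.05, against 7.32% of all genes. Mrpl11 had the lowest p at a log2 difference of -0.22 (SE 0.062, edgeR adjusted p = 0.102), followed by Mrps16 at -0.21 and Mrpl52 at -0.19. Mrpl20, Mrpl16 and Mrpl18 had the lowest p among the 11 higher members, with log2 differences of 0.08, 0.08 and 0.05. With DESeq2, which called 2.23% of genes, Mrpl11 passed (adjusted p = 0.0455). Mrpl11 also passed without control male 3 (edgeR adjusted p = 0.0364), and Mrps16 without LKO female 1 (0.0289). The count of 10 became 19 without LKO female 1 or control male 3, 6 without LKO female 5 or control male 6, and 5 without control male 4 or with library size alone.

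Control females had lower levels than control males for most members, and here single genes passed the test. Of 77 members, 24 were called lower in females by edgeR's quasi-likelihood test and 0 higher. Of 13699 genes tested, 9.19% were called lower and 8.8% higher in females. The log2 difference was below 0 for 69 members with a median of -0.21 (-13.3%), against 49.5% of all genes and a median of 0.00. The called members were 16 of the large and 8 of the small subunit. In 13 members every control female lay below every control male, against 5.17% of all genes. Each sex was deposited in its own table, so sex and table cannot be told apart, and the comparison shares its control males with that of LKO against control in males.

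Mrpl34 (chromosome 8, bases 71917603 to 71918391 of mm39, plus strand), the third member by FPKM, differed most. Control males read 61.2 to 91.0 CPM and control females 39.9 to 52.7 (median 46.1), well apart, with a log2 difference of -0.67 (SE 0.11, edgeR adjusted p = 0.0018). Mrpl16 read 48.7, 41.7, 45.6, 40.6 and 47.7 CPM in control males and 29.8 to 35.1 (median 32.1) in control females. Its groups were apart as well, at -0.48 (SE 0.073, edgeR adjusted p = 0.000905), the lowest p of the 77. Mrpl54 differed by -0.51 (SE 0.082, edgeR adjusted p = 0.00125), and Mrpl20 by -0.54 (SE 0.11, edgeR adjusted p = 0.00509) with 40.1 to 59.1 CPM in control males and 29.2 to 39.1 in control females. Mrps6, the member with the fewest counts in females, read 8.76 to 11.3 CPM in control males and 7.14 to 8.27 in control females. The difference was -0.46 (SE 0.095).

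Mrps18a, Mrps18b and Mrps18c are relatives of 1 bacterial ribosomal protein, and their products take different places, the first in the large and the others in the small subunit. Mrps18a read 70.8, 53.8, 60.4, 52.7 and 73.3 CPM in control males and 37.9 to 45.8 (median 43.5) in control females, at -0.55 (SE 0.10, edgeR adjusted p = 0.00294). Mrps18b read 24.9, 22.7, 25.2, 22.1 and 25.4 CPM in control males and 14.7 to 18.9 (median 18.7) in control females, at -0.43 (SE 0.084, edgeR adjusted p = 0.00405). In both, the 2 control groups were apart. Mrps18c did not pass, at -0.30 (SE 0.14, edgeR adjusted p = 0.144), with 12.1 to 19.7 CPM in control males overlapping 10.5 to 14.6 in control females. In LKO against control males these 3 differed by -0.19, -0.02 and -0.19, none called.

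Mrpl15 pointed the other way. Control males read 47.6, 45.3, 43.0, 57.5 and 61.3 CPM, and control females 57.8 to 67.0 (median 60.3). Only control male 6 reached the female range, and the difference was 0.27 (SE 0.10, edgeR adjusted p = 0.0721), which passed without control male 4 (0.0426) or control male 6 (0.0302). Mrps9 (0.16, SE 0.066, edgeR adjusted p = 0.107) and Mrps35 (0.09, SE 0.099) were the next among 8 members with higher female values. Gene length and cytosolic ribosomal proteins were read beside this comparison too. Protein-coding genes of the shortest quartile had a median of -0.13 and those of the longest 0.11, and the members -0.27 and -0.20, and of 86 cytosolic ribosomal proteins 63 were lower and 3 called, with a median of -0.06. Cell type markers moved too. Of 9 hepatocyte markers 7 were higher in control females and 4 called, with a median of 0.43 and sums of 93078 to 113179 CPM against 63420 to 94164 in control males. Of 10 macrophage and Kupffer cell markers 9 were higher and 4 called, with a median of 0.65 and sums of 625.1 to 1168 against 366 to 797. The part of these features in the sex difference was not tested.

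LKO females and LKO males were set side by side after the first values were seen. The median over members was -0.04, with 48 of 77 lower in females, against 6768 of 13778 genes lower and a median of 0.01. By edgeR's quasi-likelihood test 1710 of 13778 genes were called (12.4%), 6.51% lower and 5.9% higher in females. Cytosolic ribosomal proteins went the other way, with 81 of 86 higher in females and a median of 0.27. Of these, 26 were called higher and 1 lower. Of the members, 3 were called lower, Mrps18b at -0.54 (SE 0.11, adjusted p = 0.00542), Mrpl16 at -0.42 (SE 0.09, adjusted p = 0.00609) and Mrps31 at -0.27 (SE 0.083, adjusted p = 0.0448). Mrpl15 alone was called higher, at 0.44 (SE 0.11, adjusted p = 0.0141). For these 4 the control values were -0.43, -0.48, -0.12 and 0.27 in the same order. Without LKO female 6, 8 members were called. The share of all genes called in that fit is not given here, so this count shows no change particular to the members. Whether the sex difference of the members itself differed between genotypes is the interaction given above, with 0 called.

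Other genes of mitochondrial translation were read from lists, and none was called in LKO against control in either sex. Ribosomal proteins known by other names divided in males. Dap3, the GTP-binding protein of the small subunit, averaged 41.8 ± 0.894 CPM (SD, n = 5) in control and 42.1 ± 3.53 (n = 6) in LKO males, a log2 difference of 0.01. Ptcd3, also of the small subunit, lay at 0.13. Chchd1 (-0.27), Gadd45gip1 (-0.27) and Aurkaip1 (-0.25) had lower values, each with an unadjusted p under 0.05. Of these 5, Gadd45gip1 was called lower in control females (-0.40, edgeR adjusted p = 0.0327).

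Of 21 assembly factors, 13 were lower in LKO males (median -0.09), with Dhx30, an RNA helicase, having the lowest p at a log2 difference of 0.21. In LKO females 14 were higher (median 0.02), Ddx28, another helicase, having the lowest p at a log2 difference of 0.34. In control females 3 of the 21 were called lower, Ddx28 (-0.45), Mpv17l2 (-0.35) and the GTPase Mtg1 (-0.31), against the 9.19% of all genes given above. Of 16 translation factors, 10 were lower in LKO males (median -0.05), and the elongation factor Gfm1 had the lowest p at a log2 difference of 0.22. In LKO females Oxa1l, the insertase that receives new chains at the inner membrane, had the lowest p at a log2 difference of -0.19. In control females the elongation factor Tsfm (-0.48), Mtrf1 (-0.42) and the initiation factor Mtif3 (-0.36) were called lower, 3 of 16 against the same 9.19%. Of 17 mitochondrial tRNA synthetases, 8 were lower in LKO males and 11 in LKO females. Wars2 had the lowest p in both sexes, with log2 differences of 0.44 in males and -0.30 in females, neither called.

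Among 9 regulators of mitochondrial gene expression, Myc had the lowest p in LKO males, 12.8 ± 5.07 CPM in control (SD, n = 5) and 31.9 ± 18.2 in LKO males (n = 6), a log2 difference of 1.30 (SE 0.41, edgeR adjusted p = 0.274). Gabpa, the DNA-binding subunit of GABP, had the lowest p in LKO females at a log2 difference of -0.14. Both Ppargc1a, the coactivator PGC-1 alpha (1.09, edgeR adjusted p = 0.0225), and Gabpa (0.23, edgeR adjusted p = 0.0432) were called higher in control females, 2 of 9 against 8.8% of all genes. Tfam, which packages mitochondrial DNA, lay at -0.11 in LKO males and 0.12 in LKO females.

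Of the 13 mRNAs that the mitochondrial ribosome translates, 8 were higher in LKO males (median 0.11) and 12 in LKO females (median 0.29), with 0 called in either. mt-Nd5 had the lowest p in males (0.40, edgeR adjusted p = 0.274) and mt-Atp6 in females (0.75, edgeR adjusted p = 0.0753). Together they took 3.93 to 5.60% of scaled counts in control males and 4.34 to 5.14% in LKO males, ranges that overlapped. In females the share averaged 4.31 ± 0.246% in control and 4.76 ± 0.407% in LKO livers (SD, n = 6 each), from 4.08 to 4.71% and from 4.36 to 5.43%, ranges that overlapped too. The 2 mitochondrial rRNAs had lower values in both sexes, with medians of -0.24 and -0.17, none called, in libraries selected for poly(A). Of 17 head-to-head partners tested, 13 were lower in LKO males (median -0.11) and 13 in control females (median -0.18). Of all genes tested, 47.9% and 49.5% were lower in these comparisons. Whether the shared starts have a part in this was not tested.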

How the data were processed

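Poly(A)-selected RNA from 23 livers was read as 1 deposited table per sex. Reads were aligned with HISAT2 2.0.5 and the build is mm39, per the submitters' processing notes; counter, annotation and use of strand are not given in the sources used here. The authors deposited raw read counts per gene, a normalised signal (each count divided by 1 factor per sample in each table, from the values), FPKM, gene length in bases (no other unit), and their log2 fold changes and p-values for LKO against control, of unnamed tool. The sample groups and replicate numbers were taken from the titles. Main tests used the counts with edgeR 4.0.16 in R 4.3.3, with filterByExpr, TMM and the quasi-likelihood test, Benjamini-Hochberg adjusted over all genes tested and called under 0.05. Each sex was fitted alone; the interaction and the mean effect used all 23 samples, and control sexes were compared on 11. All 77 members passed the filter in all 6 comparisons. Cpt1a was compared by exact permutation of log2(CPM + 1) in scipy 1.17.1. Deviations used log2 CPM with a prior count of 2. Alternatives were RLE factors, library size alone, other filters, DESeq2 1.42.0, limma 3.58.1 on log2(FPKM + 1) and log2(FPKM + 0.1), a replicate block and leaving out each sample; the LKO sex comparison was added after seeing the data. The edgeR fit was tested on simulated data. No list was tested as a set. The members and gene lists were chosen with earlier results of these data known. Named members are those with the lowest p per comparison and direction, without overlap, called, or highest or lowest in FPKM, together with the Mrps18 relatives; in other lists they are the called genes or the lowest p per sex.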

Additional observations from a re-analysis of the deposited data

Results flagged for a closer look

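A value was singled out where the gap of the highest or lowest liver to its nearest neighbour took an unusual share of the range of its group, by Dixon's 95% limit. This was asked of 120 groups of values, most of them for the named members, and chance alone marks about 1 group in 20. It marked 7. Mrpl17 read 120 CPM in control male 6, against 84.4 to 94.4 in the other control males, and Mrps9 read 26.3 there against 22.6 to 23.6. In LKO males, Mrpl52 read 55.8 CPM in replicate 3 against 49.2 to 50.9 in the others, Mrps18a 69.5 in replicate 4 against 48.8 to 56.5, and Mrps31 22.8 in replicate 5 against 28.1 to 30.0. Mrpl18 read 31.6 CPM in control female 2 against 41.5 to 45.1, and Mrps25 read 16.4 in LKO female 1 against 11.6 to 13.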

How the results depend on the processing

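In LKO against control, DESeq2's Wald test called 1 member in males, 2 in the interaction and 1 in the mean effect. Over all genes it called 112, 96 and 323 in the same order. In LKO females against LKO males it called 8 members, against 2140 of 13778 genes. With library size alone, members at an unadjusted p under 0.05 numbered 12 in males, 8 in females and 5 in the mean effect, and 5 members were below 0 in the interaction. The labels link same-numbered mice by the number alone. Deviations of same-numbered control and LKO mice correlated at -0.299 to 0.376 in males and -0.0028 to 0.137 in females. Control females 1, 3, 4 and 6 and control male 3 correlated best with the LKO mouse of their own number. Whether same-numbered mice were paired is therefore not known. With a replicate block, 12 members were at an unadjusted p under 0.05 in males and 10 were called between the control sexes. Over all genes the block called 991 between the control sexes, while the main fit called 1259 lower and 1206 higher in females. Leaving out single mice gave 11 to 34 members in males and 3 to 6 in females at an unadjusted p under 0.05. The interaction had 10 to 29 at that level and the mean effect 5 to 19. In the interaction 2 to 10 members were below 0. Called members numbered 0 to 1 in the mean effect, 17 to 29 between control sexes and 3 to 8 between LKO sexes. The shares of all genes called in the same fits are not given here, so these counts show no change particular to the members. Mrpl18 in males turned to -0.00764 and -0.00705 on log2(FPKM + 0.1) and log2(FPKM + 1) and to -0.0675 with the block. Without single mice Mrpl18 ran from -0.0574 to 0.066, below 0 without LKO male 3, 4 or 5 or control male 3, and Mrpl16 from -0.0152 to 0.0862, below 0 without LKO male 3. The causes were not tested. Of the remaining values of named members, 727 kept direction and side of the threshold and 8 passed it newly. The members had 135 or more mean counts, and their standard errors, with a median of 0.094 in males and 0.088 in females, were not split into counting error and spread between mice.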
